A study of Mus musculus with 18 samples.

Results

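Aminoacyl-tRNA synthetases are the enzymes that join each amino acid to its tRNA, and their genes were described here by their level of nascent transcription in murine ES cells. The genes were taken from the deposited gene table by their symbols, which consist of the letter of an amino acid and the ending ars, with a digit where there is one, together with Farsa, Farsb and Eprs. Described here are 36 of the 21859 genes of the table. Of these, 20 encode enzymes of the cytosol, and 16 carry the digit 2 and encode enzymes of mitochondria. The table listed 17 of the cytosolic genes under older symbols (Aars for Aars1, Kars for Kars1), and these are kept below.

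Synthetases work in separate sets in the cytosol and in mitochondria, and the mitochondrial enzymes are also encoded in the nucleus and imported. For glycine and lysine a single gene (Gars, Kars) provides both compartments. Glutamate and proline are served in the cytosol by a single fused enzyme (Eprs), while mitochondria use Ears2 and Pars2. The cytosolic phenylalanine enzyme is built from the subunits Farsa and Farsb, and its mitochondrial counterpart Fars2 works alone. No gene for a mitochondrial glutamine enzyme exists in this family, since mitochondria make that charged tRNA by amidation of glutamate on the tRNA. Several cytosolic synthetases are held in a multi-synthetase complex by scaffold proteins. All of the enzymes fall into class I or class II, which differ in the fold of the catalytic domain.

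Nascent RNA was measured by TT-seq, which labels newly made RNA with 4-thiouridine (4sU) for a few minutes before it is purified and sequenced by strand. There were 18 libraries, 3 from each of 6 conditions. The cells were of the E14 line, a murine ES cell line grown without feeder cells, and all of them carried osTIR1, the plant receptor that directs proteins with an auxin-inducible degron (AID) to degradation. Untagged cells had no tag on SPT16, a subunit of the histone chaperone FACT. In SPT16_AID_V5 Clone1 and SPT16_AID_V5 Clone2, 2 independently targeted clones, SPT16 carried the degron and a V5 tag. Each line was treated for 24 h with 0.1% ethanol (EtOH) or with the auxin 3-IAA, and each tagged line is 1 clone. In the labels the dose of 3-IAA is 500 nM and that of 4sU, added for 5 min, is 500 mM, whereas the methods state both in µM.

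A single value per gene was used, the authors' mean over these libraries of counts divided by size factors, with control and SPT16-depleted libraries averaged together. No level in a single library or condition was analysed here. It follows that no spread between replicates, no test and no comparison of EtOH with 3-IAA is given, and the values below are descriptions. Neighbours in an order of levels cannot be told apart or shown to be alike without that spread, and the depth reached by each library cannot be read from these means, although the methods state a common approximate depth. The label of an ES cell was checked against markers over all libraries together. All 8 ES cell markers, from Sox2 at 5985 to Tfcp2l1 at 72139.8, were far above all 5 fibroblast or feeder markers, of which Thy1 was highest at 25.7.

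The level of a gene in nascent RNA depends on how much of it was counted. The counts appear to cover whole genes with their introns. Of 116 coding genes that lie in an intron of another coding gene on the same strand, 115 were listed at 0, against 13 of 273 such genes on the opposite strand. The means were therefore divided by the genomic span of each gene in kb, and this value is the level per kb used below. Division by the length of the merged exons in place of the span changed many orders, and the main changes are given beside them. Gene positions and lengths are those of Gencode vM21 on GRCm38.

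The synthetase genes were widely transcribed. All 36 had a mean of at least 913 normalised counts, the value of Pars2. On the level per kb, 34 of 36 were above 38.9, the median of the 17664 genes with a mean of at least 1. The exceptions were Fars2 at 34.2 and Wars2 at 26.7 per kb, both mitochondrial. Per kb of merged exons the count was also 34, but the exceptions were Mars2 and Vars2. The median of the 36 was 213 per kb, above the upper quartile of all genes, 135 per kb.

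**Figure D1:**
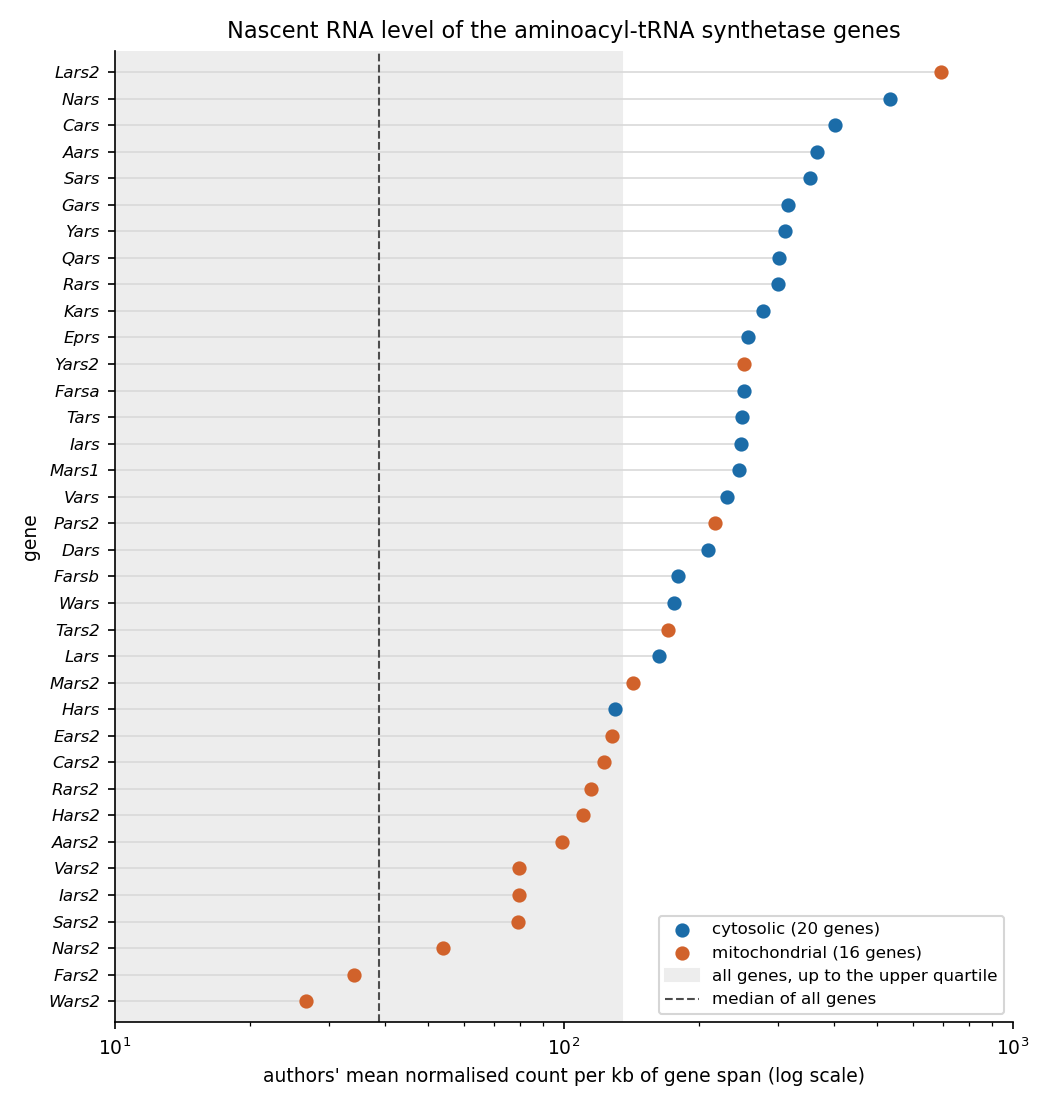
Level of each of the 36 synthetase genes, as the authors' mean normalised count per kb of gene span (x axis, log scale), ordered from lowest to highest, with cytosolic genes in blue and mitochondrial genes in orange. Grey shading reaches to the upper quartile of all genes (135) and the dashed line marks their median (38.9). Cytosolic genes fill most of the upper part, and Lars2, at 693, stands above all of them.

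Cytosolic genes had the higher levels. Their level per kb ran from 129.9 (Hars) to 532 (Nars) with a median of 255, and all 20 were above the median of all genes. The mitochondrial genes ran from 26.7 (Wars2) to 693 (Lars2) with a median of 113. The ratio of the 2 medians was 2.27, and it was 2.31 without Lars2. The kinds overlapped in part. All 20 cytosolic genes were above the mitochondrial median, Lars2 was the only mitochondrial gene above the cytosolic median, and 11 of 16 mitochondrial genes were below Hars, the lowest cytosolic gene. The overlap was wider per kb of merged exons, where the medians were 1482 and 470.3. There 3 mitochondrial genes, Lars2, Fars2 and Rars2, were above the cytosolic median, and 6 of 16 were below the lowest cytosolic gene. Since these are genes and not replicates, the difference is given without a test.

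On the level per kb of span, the top cytosolic genes were Nars, which charges the tRNA for asparagine, at 532 per kb and Cars, for cysteine, at 403 per kb. Then came Aars, for alanine, at 367, Sars, for serine, at 353, and Gars, for glycine, at 316 per kb. Nars was above 97.1% of all genes. Next in order were Yars (tyrosine) at 312, Qars (glutamine) at 302, Rars (arginine) at 299.9 and Kars (lysine) at 278 per kb. The middle of the order was narrow. Eprs, Farsa, Tars (threonine), Iars (isoleucine) and Mars1 (methionine) lay between 246 and 258 per kb, and Vars (valine) was at 231. The lowest were Dars (aspartate) at 210.1, Farsb at 180.2, Wars (tryptophan) at 176, Lars (leucine) at 163 and Hars (histidine) at 129.9 per kb. Hars was still above 74.1% of all genes. Per kb of merged exons the order was another. Farsb at 4878 and Gars at 4198 were then the highest of the 20, followed by Cars at 2625, Dars at 2587 and Iars at 2465. Nars was at 2077, and Qars, at 378, was the lowest. Cars was thus high on both scales, while the places of Farsb, Dars and Qars depended on the length used.

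Among the mitochondrial genes, Yars2 at 252, Pars2 at 217, Tars2 at 171 and Mars2 at 143 per kb followed Lars2. These 4 lay in the range of the cytosolic genes on the level per kb of span. Ears2, Cars2, Rars2 and Hars2 were between 110.5 and 128 per kb, and Aars2 was at 99.4. A close group of 3 genes, Vars2, Iars2 and Sars2, was at 79.3 to 79.7 per kb. Below them came Nars2 at 53.8, Fars2 at 34.2 and Wars2 at 26.7 per kb. Wars2 was above 45.4% of all genes, the smallest share of any synthetase gene. Per kb of merged exons, Lars2 was followed by Fars2 at 3626, Rars2 at 1869 and Nars2 at 875, and the lowest were Vars2 at 175 and Mars2 at 143.

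The same contrast was seen amino acid by amino acid. For 13 amino acids 1 gene of each kind was compared, and in 12 of these the cytosolic gene had the higher level per kb. The ratio of cytosolic to mitochondrial level had a median of 2.9 over the 13 pairs and was over 2 in 8 of them. Per kb of span the ratio was highest for asparagine, 9.88, where Nars at 532 stood beside Nars2 at 53.8 per kb. Tryptophan followed at 6.59 and serine at 4.45. At the other end, histidine had a ratio of 1.18, tyrosine of 1.24 and threonine of 1.46. Leucine was the exception, with Lars2 at 693 and Lars at 163 per kb, so that the mitochondrial gene was 4.25 times as high. Part of the last Lars2 exon has copies elsewhere in the genome, as described below, and its share in this level was not tested. The order of the ratios did not hold across scales. Per kb of merged exons asparagine was at 2.37, and methionine was highest at 7.83, while with no division by length asparagine was at 1.48 and serine was highest at 7.61. The count of 12 of 13 was the same per kb of merged exons and with no division by length.

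For glutamate, proline and phenylalanine the genes do not pair singly. Eprs at 258 per kb was 2.02 times Ears2 and 1.19 times Pars2. Farsa and Farsb, at 252 and 180.2 per kb, were 7.38 and 5.27 times Fars2. Phenylalanine was the case in which length decided the order. Fars2 spans 609 kb, the longest of the synthetase genes, and merged exons make up 0.944% of it. Its mean of 20839 normalised counts was 2nd only to Lars2 among the 36, and per kb of merged exons it was 5.31 times as high as Farsa and 0.743 times as high as Farsb.

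**Figure D2:**
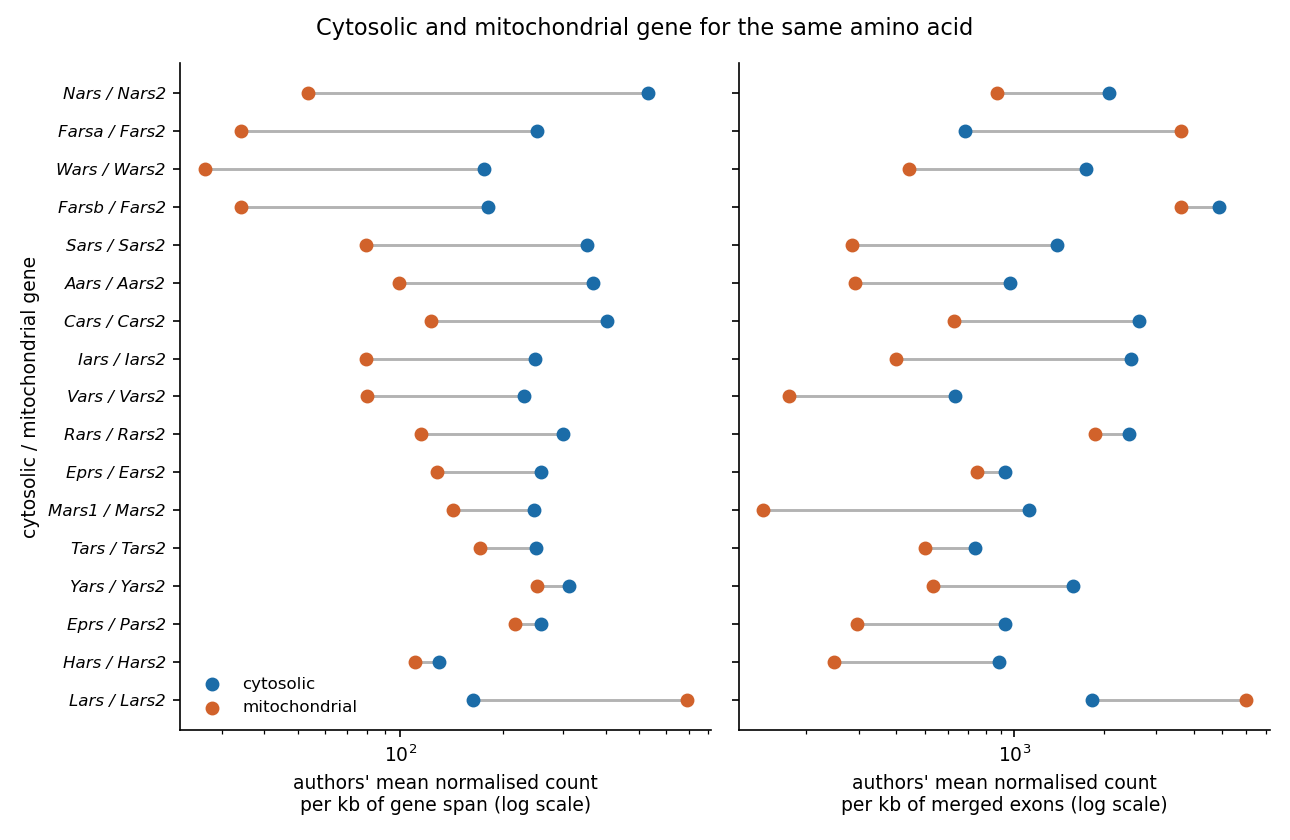
Level of the cytosolic gene (blue) and the mitochondrial gene (orange) for the same amino acid, as the authors' mean normalised count per kb of gene span (left) and per kb of merged exons (right), on log scales, with a grey line joining each pair. The blue point is to the right in all pairs but Lars and Lars2 on the left, and in all but these and Farsa with Fars2 on the right.

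The kinds did not differ in the same way in length. Cytosolic genes had a median span of 25.3 kb and mitochondrial genes of 25.1 kb, close to the 23.6 kb of all genes, and the medians of merged exon length were 4.84 and 5.6 kb. Mitochondrial spans were the more uneven, from 4.21 kb (Pars2) to 609 kb (Fars2), against 8.24 kb (Qars) to 70.9 kb (Farsb). Mars2 is a single exon of 11.3 kb. Across the 36 genes the mean count followed the span (Spearman's rho = 0.78 across genes, against 0.36 across all 17664 genes), while the level per kb did not (rho = -0.10, against -0.15 across all genes). Genes are not independent replicates and no p is given.

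**Figure D3:**
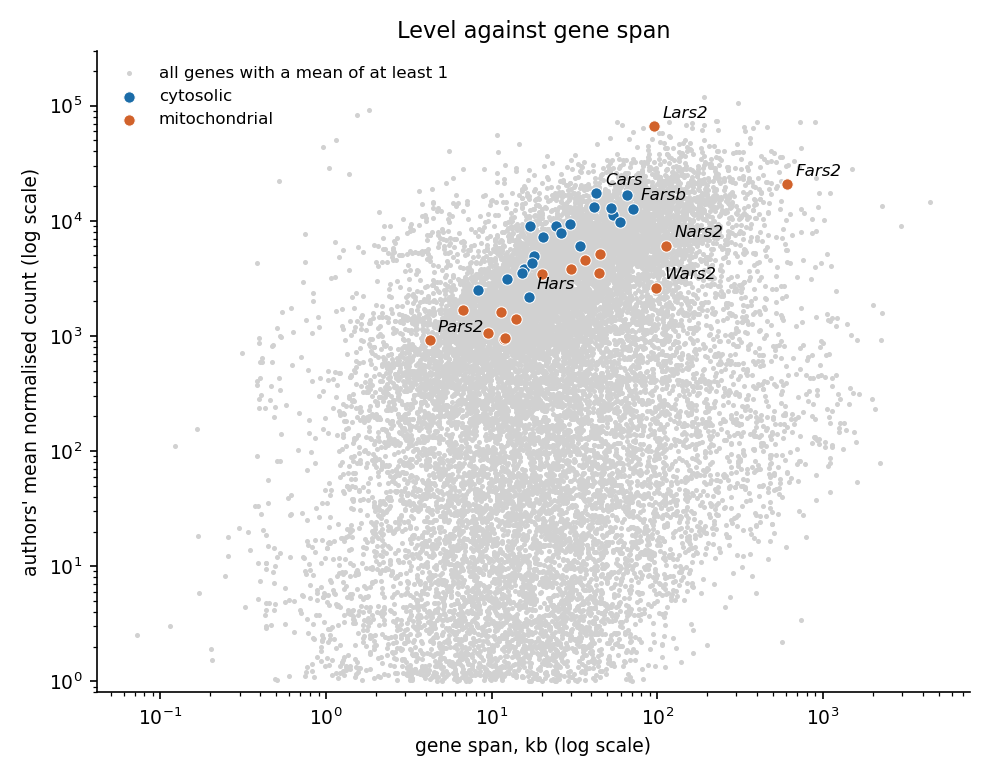
The authors' mean normalised count of each gene (y axis) against its genomic span in kb (x axis), both on log scales, for all genes with a mean of at least 1 (grey) and for cytosolic (blue) and mitochondrial (orange) synthetase genes. At a like span most orange points lie below the blue ones, and Lars2, at 95.7 kb and 66357, lies above them.

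Lars2, the mitochondrial leucine enzyme, stood apart from its kind on every scale. Its mean of 66357 normalised counts was above 99.9% of all genes, its 693 per kb above 98%, and its 5984 per kb of merged exons above 99.2%. The gene lies on chromosome 9 from 123366927 to 123462666 on the plus strand. Since it stood apart, its last exon of 1168 bases was compared with the rest of the genome. A stretch of 398 bases within it, from 123461792 to 123462189, matched 22 other places over at least 50 bases at 82.2 to 98.8% identity, the longest over 244 bases. The authors kept reads that aligned to a single place. How many of the reads of Lars2 fall in this stretch cannot be read from a mean over the gene, and the part of the stretch in its level was not tested. The last exons of the other genes were not compared in this way.

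Within the cytosolic set, the 8 genes of the multi-synthetase complex (Dars, Eprs, Iars, Kars, Lars, Mars1, Qars, Rars) ran from 163 (Lars) to 302 (Qars) per kb with a median of 254. The 12 free genes ran from 129.9 to 532 with a median of 282. The ratio of complex to free genes was 0.898 on the level per kb and 1.09 with no division by length, so these medians gave no order that held across scales. On the level per kb the complex genes were the narrower group, their highest being 302 per kb against Nars, Cars, Aars, Sars, Gars and Yars above that among the free genes.

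The medians of classes I and II lay close together over the whole family. The 18 class I genes had a median of 203 and the 17 class II genes of 210.1 per kb, with Eprs, which holds an enzyme of each class, left out. Within the cytosolic genes, the medians were 249 for 9 class I genes and 265 for 10 class II genes. Within the mitochondrial genes, they were 123 for 9 class I and 99.4 for 7 class II genes. The mitochondrial classes lay further apart on the other scales, at 533 and 295 per kb of merged exons and at 3547 and 1392 normalised counts. Over both kinds, the ratio of the class medians was 0.968 and became 1.05 per kb of merged exons, against 2.27 for the medians of cytosolic and mitochondrial genes.

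Genes that act beside the synthetases were compared by lists. Of the 3 scaffold proteins of the complex, Aimp1 was at 154, Aimp2 at 196 and Eef1e1 at 296 per kb. Their median, 196, was below that of the complex enzymes, 254, and Aimp1 was below Lars, the lowest of these enzymes. Per kb of merged exons the medians were 848 and 1469.9. The 4 genes that complete mitochondrial charging, Qrsl1, Gatb and Gatc of the glutamine amidotransferase and Mtfmt, which formylates the initiator methionine, ran from 34.5 (Gatb) to 88.7 (Gatc) per kb with a median of 76.9, in the lower range of the mitochondrial synthetases. Per kb of merged exons their median, 498, was slightly above that of the mitochondrial synthetases, 470.3. Of the 5 editing and synthetase-related genes, Prorsd1 was highest at 193 per kb, and Tarsl2, a relative of Tars, was at 19.6. Aarsd1 was listed at 0, and the whole of its span is shared with another gene of the table on the same strand.

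The selenocysteine route, which makes its amino acid on the tRNA, had 5 of 5 genes above the median of all genes, from Pstk at 48.3 to Sephs2 at 840.4 per kb of span, although Pstk, at 142 per kb of merged exons, was below the median of 207 on that scale. Translation elongation factors, among which Eef1a1 and the mitochondrial Tufm carry charged tRNAs to ribosomes and the others act in nucleotide exchange, translocation or ribosome recycling, showed a wider gap between the compartments. The 5 cytosolic factors ran from Eef1d at 399.9 to Eef1a1 at 5227 per kb with a median of 2507, while the 4 mitochondrial factors ran from Tsfm at 79 to Tufm at 197 with a median of 105. The mitochondrial factors thus had a median near that of the mitochondrial synthetases, 113, and the cytosolic factors one far above that of the cytosolic synthetases, 255 per kb.

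Some synthetase genes start beside another gene. In 9 of 36 the start site lay within 1000 bases of that of another coding gene on the opposite strand, head to head. This was 25%, against 12.6% of the 17635 coding genes with a mean of at least 1. The 9 were 5 of 16 mitochondrial and 4 of 20 cytosolic genes. Hars and Hars2 are such a pair of their own, overlapping at their starts by 198 bases, and both are counted among the 9. They had levels of 129.9 and 110.5 per kb of span but of 885 and 247 per kb of merged exons. Rars2 starts 12 bases from Orc3, a subunit of the origin recognition complex, with levels of 115 and 148 per kb of span but of 1869 and 1073 per kb of merged exons. Yars starts 32 bases from S100pbp, Kars 74 bases from Terf2ip and Sars2 171 bases from Mrps12. In Ears2 with Ubfd1, Fars2 with Lyrm4 and Wars with Wdr25 the genes overlapped at their starts by 89, 115 and 544 bases. The level per kb of Sars2, 79.3, was below that of Mrps12, 185, while Yars at 312 was above S100pbp at 141 and Kars at 278 above Terf2ip at 113. These 3 orders were the same per kb of merged exons.

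Reads were counted by strand, and 10 members overlapped a gene on the opposite strand in part. On the same strand the single overlap was of Aars with Exosc6, which lies inside it over 1326 bases and was listed at 0.

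Promoter upstream transcripts (PROMPTs) are short RNAs made upstream of a gene in the opposite direction. The deposited PROMPT table, which holds 32253 rows, had a row for 26 of the 36 genes, 72.2%, against 81.5% of all genes with a mean of at least 1. Each of the 10 genes without a row had an annotated gene on the PROMPT strand in the 1000 bases upstream, a coding gene in 6 and a noncoding gene in 4 (Cars, Eprs, Iars2 and Nars2). Of the 26 with a row, 23 had none there. The remaining 3 were Fars2, Kars and Wars, whose windows overlap Lyrm4, Terf2ip and Wdr25.

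PROMPTs of synthetase genes were above those of most genes. Their median was 7.86 normalised counts against 1.1 over 14403 genes, and 24 of 26 were above the latter. The 36 genes themselves also had a higher level than most, with a median of 213 per kb against 38.9 over all genes. The highest PROMPTs were at Aars2 (73.6), Vars (52.1), Mars2 (50.8), Sars (38.4) and Dars (28.3). The lowest were at Fars2, listed at 0, Lars2 at 0.0858 and Wars at 1.4. The windows of Fars2 and Wars overlap Lyrm4 (6553 normalised counts) and Wdr25 (7839.8) on the PROMPT strand. How reads shared with these genes were counted was not tested, so neither value can be read as a low PROMPT. With both kept in, the cytosolic PROMPT median was 12.6 over 16 genes and the mitochondrial one 6.23 over 10 genes. Relative to the level per kb of the gene itself the order was the reverse, with medians of 3.65% for cytosolic and 8.07% for mitochondrial genes.

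PROMPTs lie within 1 kb of the start, so their level was set beside the gene's own level per kb. The 2 means were deposited separately, and whether they share size factors is not known here. The gene's value is also an average over its whole span, while the PROMPT lies at its start. On this measure the PROMPT was the smaller. It had a median of 5.83% of the level per kb, against 4.69% over all genes, and at no synthetase gene did it exceed the gene, as it did at 8.94% of all genes. The share over all genes includes genes of lower level. Their lower quartile was 2.68 per kb over 17664 genes, while no synthetase gene was below 26.7. Aars2 was the nearest to balance, with a PROMPT of 73.6 beside 99.4 per kb in the gene, or 74%. Mars2 followed at 35.5% and Vars at 22.6%. For the other pair members the values were far lower, 0.532% for Aars and 6.55% for Mars1, and 7.77% for Vars2. Lars2 had a PROMPT at 0.0124% of its level, and only that of Fars2, listed at 0 in a window that overlaps Lyrm4, was lower. Across the 26 genes the PROMPT did not follow the level per kb (Spearman's rho = 0.00), whereas across all 14403 genes it did (rho = 0.63), a description across genes that share libraries and depth. The 26 genes lay between 26.7 and 693 per kb. All genes with a mean of at least 1 ran from 0.00394 to 53415 per kb, so the 2 rho values are not like for like.

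**Figure D4:**
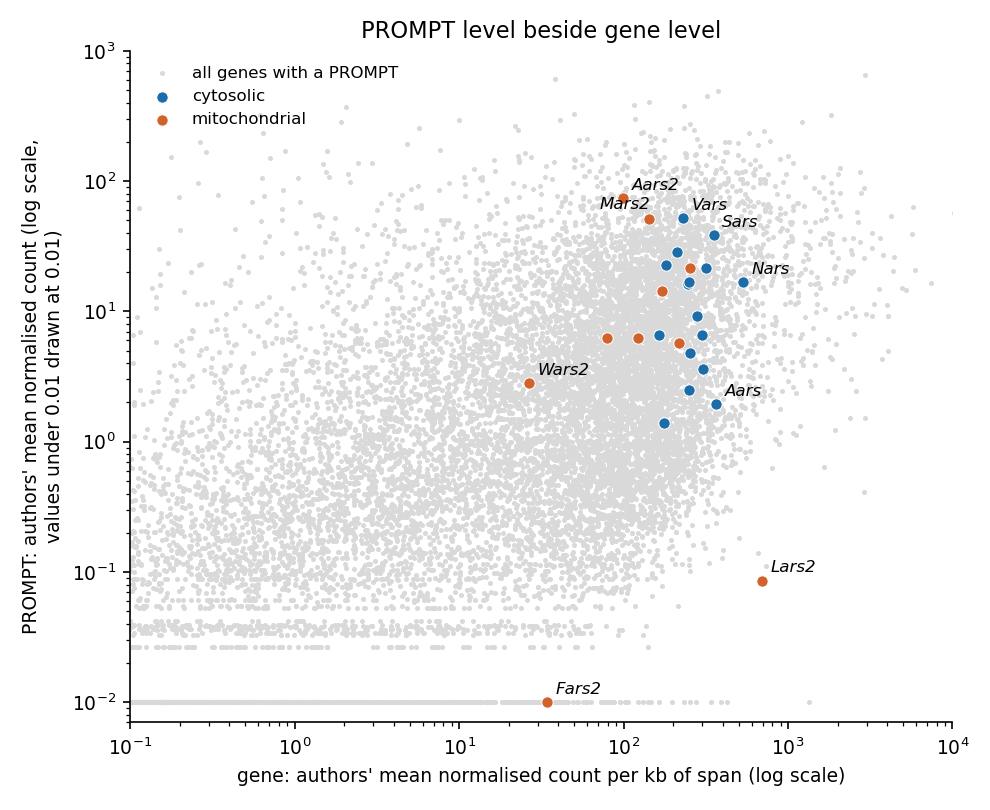
PROMPT level (y axis, the authors' mean normalised count) against the level of its gene (x axis, the authors' mean normalised count per kb of span), both on log scales, for all genes (grey, those under 0.1 per kb not drawn) and for 16 cytosolic (blue) and 10 mitochondrial (orange) synthetase genes. Most synthetase genes sit together at the upper right, Aars2 and Mars2 at its top, while Lars2 (0.0858) and Fars2 (listed at 0, drawn at 0.01) lie far below. The PROMPT window of Fars2 overlaps Lyrm4 on the PROMPT strand.

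The promoter sequences of 27 of the 36 genes, 13 cytosolic and 14 mitochondrial, were given by RefSeq for GRCm38.p6 as 250 bases before to 50 bases after the start, and those of Cars, Hars, Hars2, Lars, Nars, Pars2, Rars, Vars and Wars were not analysed here. Where a gene had several starts, the most upstream was taken. These RefSeq starts can lie inside the Gencode span used for the levels, as in Aars and Tars2 among others. For 6 motifs, of which no matches shared bases in these genes, both strands were searched and the share was set beside that of 27025 promoters, 1 per gene. ATF4, the transcription factor of the amino acid response, is known to act on synthetase genes through a composite element with CEBP. Its letters, TTGCATCA, were in 4 of 13 cytosolic and 0 of 14 mitochondrial promoters, against 0.929% of all promoters and 0.634% of the 13726 promoters of genes with a mean of at least 1. The 4 were Aars, Iars, Tars and Yars.

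The element lies before the RefSeq start in Aars, its first base 112 bases upstream, and in Tars, 15 bases upstream. It begins 8 and 4 bases after that start in Iars and Yars. In Aars it lies inside the Gencode span. For the pair in which it lies upstream, the 120 bases before the start are shown 5′ to 3′ on the strand of the gene, with the element in capitals, since the element was found in cytosolic and in no mitochondrial promoters.
Aars, chr8:111033722-111033841, plus strand: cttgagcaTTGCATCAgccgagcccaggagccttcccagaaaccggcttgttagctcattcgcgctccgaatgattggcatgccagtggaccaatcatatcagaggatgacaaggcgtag
Tars, chr15:11399659-11399778, minus strand: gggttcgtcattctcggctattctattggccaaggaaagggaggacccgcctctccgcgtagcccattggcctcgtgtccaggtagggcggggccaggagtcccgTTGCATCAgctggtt

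These 4 genes, Aars at 367, Iars at 249, Tars at 249.7 and Yars at 312 per kb, lay within the range of the other cytosolic genes. A match of letters is a description and does not show binding.

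NRF1, a factor known to act on nuclear genes of mitochondrial function, had the reverse distribution. The letters searched for it, GCATGCGC, were in 3 of 14 mitochondrial and 0 of 13 cytosolic promoters, against 2.8% of all promoters and 4.44% of those of genes with a mean of at least 1. They were those of Rars2, Vars2, which holds 2 copies, and Wars2, all in the 64 bases before the start. The same 120 bases are shown with these letters, on either strand, in capitals.
Rars2, chr4:34614837-34614956, plus strand: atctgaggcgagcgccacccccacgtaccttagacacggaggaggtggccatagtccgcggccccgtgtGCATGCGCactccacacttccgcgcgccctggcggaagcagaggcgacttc
Vars2, chr17:35667593-35667712, minus strand: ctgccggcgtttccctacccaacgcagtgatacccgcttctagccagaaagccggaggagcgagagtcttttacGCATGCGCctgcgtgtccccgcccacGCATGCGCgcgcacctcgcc
Wars2, chr3:99140970-99141089, plus strand: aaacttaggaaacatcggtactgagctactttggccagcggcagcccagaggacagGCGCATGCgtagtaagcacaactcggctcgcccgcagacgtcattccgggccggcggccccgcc

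These 3 genes had levels of 115, 79.7 and 26.7 per kb. Both counts are small, the motifs were 2 of 6 searched, and no test over genes was made.

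The E-box CACGTG was in 5 of 27 promoters (Aars, Ears2, Farsb, Iars and Tars), or 18.5%. Its share was 7.24% of all promoters and 9.11% of those of genes with a mean of at least 1. The E-box was in 4 of 13 cytosolic against 1 of 14 mitochondrial promoters. In the bases before the start alone it was in 3 of 13 and 0 of 14. Of the 4 promoters with TTGCATCA, 3 were among the 5 with the E-box. The letters CCGGAAGT of ETS factors were in 3 (Farsa, Mars1 and Rars2), 11.1% against 3.99% of all and 6.48% of those of genes with a mean of at least 1. CCAAT was in 13 of 27 promoters, 48.1% against 38% and 38.5% on the same backgrounds. The GC box GGGCGG was in 19, 70.4% against 35.9% of all promoters but 56.2% of those of genes with a mean of at least 1. GC content was near that of transcribed genes too, with a median of 57.7% over the 27 against 59%, from 48.3% (Tars2) to 71.7% (Fars2). For Tars2, on the minus strand, the RefSeq start lies next to base 95754978 of chromosome 3, while the Gencode gene starts at 95760206. The GC content and the CCAAT match of Tars2 thus belong to a place inside that span.

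**Figure D5:**
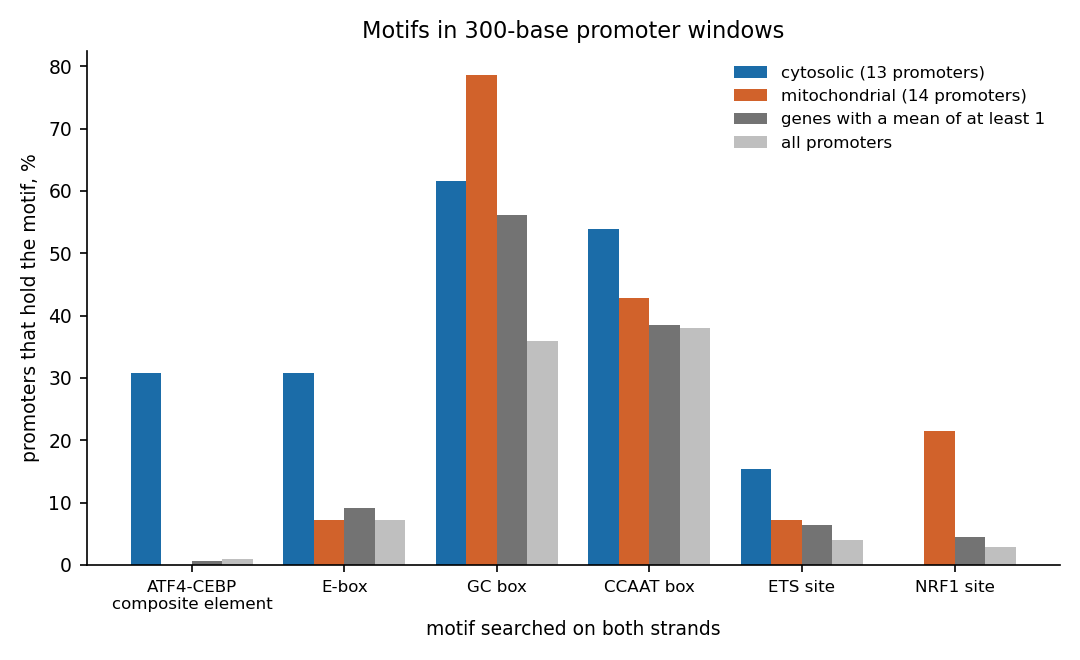
Share of promoters, in percent (y axis), that hold each of 6 motifs in 250 bases before to 50 bases after the start, for 13 cytosolic (blue) and 14 mitochondrial (orange) synthetase genes, for genes with a mean of at least 1 (dark grey) and for all promoters (light grey). The ATF4-CEBP element is seen in 4 cytosolic promoters and no mitochondrial ones, and the NRF1 letters in 3 mitochondrial promoters and no cytosolic ones.

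Within the mitochondrial genes, Aars2 had the highest PROMPT (73.6) and Lars2 the lowest above 0 (0.0858), and neither had an annotated gene on the PROMPT strand in its window. Their 120 bases before the start are shown to set the extremes side by side, with GC boxes in capitals.
Aars2, chr17:45506712-45506831, plus strand: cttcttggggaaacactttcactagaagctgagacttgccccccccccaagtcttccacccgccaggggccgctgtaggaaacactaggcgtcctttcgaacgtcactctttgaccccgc
Lars2, chr9:123366807-123366926, plus strand: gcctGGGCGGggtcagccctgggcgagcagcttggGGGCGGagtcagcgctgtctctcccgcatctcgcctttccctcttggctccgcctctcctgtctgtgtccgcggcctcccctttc

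Lars2 holds 2 GC boxes in this stretch and Aars2 holds none. The search of all 6 motifs found no other match in either window. Mars2, with the 2nd highest mitochondrial PROMPT (50.8), also holds 2 GC boxes over the same bases before its start. The GC box was in 19 of 27 promoters over the whole window, and whether it bears on the PROMPT was not tested.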

How the data were processed

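TT-seq of 18 libraries was analysed. After trimming with Trim Galore, the authors used STAR for alignment to mm10, keeping unique alignments, featureCounts for counts of read pairs by strand on Gencode vM25, and DESeq2 for size factors (HTSeq and deepTools are also named in the submitters' processing notes; versions are not given in the sources used here). The deposited signal of a gene or PROMPT, the baseMean, is the authors' mean of these normalised counts over libraries. The tables also hold the authors' log2 fold changes, their errors and p-values for SPT16-depleted against control libraries, which were not used. The eRNA and DHS tables carry no gene names and were left out.

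Genes were matched by Ensembl identifier to Gencode vM21 on GRCm38 (21817 of 21859). Levels were divided by genomic span. Merged exon length had been intended as the main length, and the order was changed after the check of nested genes, for host genes with a mean of at least 100. All genes with a mean of at least 1 served as background. The genes that the search found are named, except 1 that is not reported here, neighbours are named where they share a start region or overlap, and lists are given by range and extremes. Only medians, counts, ranges, ranks, ratios, shares and Spearman's rho across genes were computed, with no test. Alternatives were merged exon length, no length, other backgrounds, other choices of members, PROMPT windows without annotated genes and motif windows before the start. Shared parts of spans, Lars2, head-to-head genes and the scales for the lists were chosen as alternatives after seeing the data. The members and lists were chosen with earlier results of these data known. Protein sequences were not used here. The last Lars2 exon was searched against GRCm38.p6 with BLAST+ 2.17.0. Python 3.11.15, numpy 2.4.6, pandas 2.3.3, matplotlib 3.10.9 and samtools 1.23.1 were used, and the functions were tested on simulated data.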

Additional observations from a re-analysis of the deposited data

How the results depend on the processing

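The ratio of the cytosolic to the mitochondrial median (2.27) stayed above 1 in all 7 alternatives tried, from 2.08 without genes that have a head-to-head neighbour to 3.15 per kb of merged exons, and the count of 12 of 13 amino acids did not move. Of 36 members, 33 to 36 were above the median of all genes. The ratio of complex to free genes (0.898) became 1.09 with no division by length, and that of class I to class II genes (0.968) became 1.05 per kb of merged exons. Against the median of all genes, the editing and synthetase-related list (0.641) was at 1.43 per kb of merged exons and 1.21 with no division by length, the selenocysteine list (1.7) at 4.05 and 2.56, and the cytosolic elongation factors (64.4) at 31 and 21.9. Of single genes on the same scales, Fars2 (0.88) was at 17.5 and 27.3, and Wars2 (0.687) at 2.12 and 3.43, while Mars2 (3.68) was at 0.69 and Vars2 (2.05) at 0.841 per kb of merged exons. These changes come from the length by which the same mean was divided. In the bases before the start alone, TTGCATCA was in 2 promoters in place of 4 and CACGTG in 3 in place of 5. The PROMPT share of 5.83% was 6.68% over the 23 windows without an annotated gene. No paired analysis was possible because a single mean over libraries was used, and for the same reason no library, clone or control group could be left out.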
